A study of Mus musculus with 12 samples.

Results

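The 7 genes *Cdkn1a*, *Cdkn1b*, *Cdkn1c*, *Cdkn2a*, *Cdkn2b*, *Cdkn2c* and *Cdkn2d* encode the inhibitors of cyclin-dependent kinases (Cdks), 3 in the Cip/Kip family and 4 in the Ink4 family. Their rows were taken by symbol from the read count tables of neural stem/progenitor cells (NSPCs), which list 24525 genes, and all 7 were present. The cells were neurospheres from the brains of C57BL/6 embryos at E14.5, at passage 1, grown in 20 ng/ml EGF and 10 ng/ml bFGF. Wild-type cells were compared with *Ythdf2-/-* cells, which lack the cytoplasmic m6A reader Ythdf2, with 3 libraries of each genotype. The targeted allele was made by placing loxP sites around the start of *Ythdf2* and crossing to a line with ubiquitous Cre, so that the gene was lost throughout the embryo from which the cells came. The labels number the cultures of each genotype and do not say whether each came from a different embryo, so the p-values measure the spread between these samples. The libraries are the input RNA of an m6A immunoprecipitation, and the precipitated fraction was not analysed here.

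Cip/Kip proteins (p21 from *Cdkn1a*, p27 from *Cdkn1b*, p57 from *Cdkn1c*) bind cyclin and kinase together and block mainly Cdk2 complexes. Ink4 proteins (p16 from *Cdkn2a*, p15 from *Cdkn2b*, p18 from *Cdkn2c*, p19 from *Cdkn2d*) bind Cdk4 and Cdk6 alone and keep cyclin D away from them. Both families leave the retinoblastoma protein unphosphorylated, so that E2f factors stay silent and the cell remains in G1. In the embryonic forebrain, p27 and p57 are known for the exit of progenitors from the cycle, p18 for dividing progenitors, p19 for postmitotic neurons and p21 for the response to p53. *Cdkn2a* also encodes Arf in another reading frame, and reads counted per gene cannot separate Arf from p16.

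The genes lie on 5 chromosomes of GRCm38, the assembly also called mm10. *Cdkn1a* spans bases 29090979 to 29100722 of chromosome 17 on the plus strand, *Cdkn1b* spans 134920401 to 134925525 of chromosome 6 on the plus strand, and *Cdkn1c* spans 143458339 to 143461059 of chromosome 7 on the minus strand. *Cdkn2a* (89274473 to 89294619), *Cdkn2b* (89306289 to 89311032) and *Cdkn2c* (109660876 to 109666756) are on the minus strand of chromosome 4, and *Cdkn2d* (21288459 to 21291421) is on the minus strand of chromosome 9. No exon of the 7 genes overlapped an exon of another annotated gene. The bases upstream of 3 of them are shown because, as given further on, these 3 genes were low together in wild-type replicate 3, at under 50% of their mean in the other wild-type libraries. The windows are the 250 bases before a RefSeq start (promoter table of GRCm38.p6), read 5′ to 3′ on the strand of the gene. For *Cdkn1a* and *Cdkn2c* the upstream start was taken. The downstream starts also listed, at bases 29093769 and 109665372, have windows that are not shown. For *Cdkn2d* the start is base 21291209, the first base of a shorter transcript, so 212 of the 250 bases shown lie inside the span of the gene given above. Capitals mark a p53 site in *Cdkn1a* and the GC box GGGCGG, or CCGCCC on the other strand, in *Cdkn2c* and *Cdkn2d*.
Cdkn1a, chr17:29090729-29090978, plus strand: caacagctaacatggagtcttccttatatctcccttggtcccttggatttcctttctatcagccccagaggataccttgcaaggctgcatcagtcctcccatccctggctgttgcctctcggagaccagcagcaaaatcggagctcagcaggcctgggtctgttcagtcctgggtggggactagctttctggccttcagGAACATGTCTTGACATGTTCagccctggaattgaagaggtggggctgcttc
Cdkn2c, chr4:109666757-109667006, minus strand: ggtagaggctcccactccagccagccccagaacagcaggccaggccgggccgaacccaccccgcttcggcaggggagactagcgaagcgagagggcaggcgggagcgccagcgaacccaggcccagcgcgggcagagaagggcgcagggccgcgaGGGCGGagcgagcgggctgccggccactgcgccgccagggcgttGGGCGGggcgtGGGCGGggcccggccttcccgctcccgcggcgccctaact
Cdkn2d, chr9:21291210-21291459, minus strand: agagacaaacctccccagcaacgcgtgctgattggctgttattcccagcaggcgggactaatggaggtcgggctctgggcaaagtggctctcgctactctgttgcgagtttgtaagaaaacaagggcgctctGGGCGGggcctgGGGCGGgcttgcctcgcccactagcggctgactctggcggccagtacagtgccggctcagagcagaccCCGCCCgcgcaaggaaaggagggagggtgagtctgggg

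The p53 search asked for a pair of 10-base half-sites of the p53 consensus with a gap of at most 3 bases, intact 4-base cores and at most 1 mismatch in all, a tolerance set after the *Cdkn1a* window had been read. On that setting 50 of 32851 RefSeq promoter windows of 300 bases (0.152%) held a site, and of the 9 windows listed for the inhibitors only that of the upstream *Cdkn1a* start did. Its letters, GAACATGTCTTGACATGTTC, begin 51 bases before that upstream start. The GC box was found on either strand in 35.7% of all windows. It occurred 4 times in the upstream window of *Cdkn2c* and 5 times in that of *Cdkn2d*, in each case with 3 of them in the bases shown. It was not particular to these genes, with 1 in the window of *Cdkn1b* and 1 in that of *Cdkn2b*. The upstream and downstream windows of *Cdkn2a* held 3 and 1, and the downstream *Cdkn1a* window held 2. The upstream *Cdkn1a* and downstream *Cdkn2c* windows held 0. An E2f-type site (TTTCGCGC, TTTGGCGC, TTTCCCGC or TTTGCCGC on either strand; it can share bases with a GC box) was in 2.26% of windows and, among the inhibitors, in that of the upstream *Cdkn2a* start. These are matches of letters, not measured binding.

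The libraries held 11029827 to 13185778 counted reads, and reads of each gene were expressed as CPM, reads of the gene per 1000000 counted reads, with TMM factors of 0.988 to 1.03. *Ythdf2* was lower in all 3 *Ythdf2-/-* libraries (11.7, 14.7 and 11.1 CPM) than in the wild-type libraries (71.9, 73.3 and 91.4 CPM), with a log2 fold change of -2.66 and an adjusted p of 0.0547 in edgeR's quasi-likelihood test (0.0203 without wild-type replicate 3). Wild-type replicate 3 stood apart. It lay at 91.0 on the first principal component, against -30.6 to -6.04 for the other 5 libraries, and this component held 74.2% of the variance. All 15 proliferation genes tested were lowest there, with a summed level of 251 CPM against 2379 to 3541 CPM elsewhere, while oligodendrocyte lineage markers summed to 4424 CPM against 1740 to 2169 CPM. Astrocyte markers summed to 9558 CPM there against 1623 to 4804 CPM, neuronal markers to 2147 CPM against 1290 to 1515 CPM, and neural progenitor markers to 6065 CPM against 8601 to 9578 CPM. Single progenitor markers went both ways there, with 6 of the 12 at their highest and 4 at their lowest of the 6 libraries. The microglia and macrophage markers summed to 0.512 to 1.19 CPM in the 6 libraries, with *C1qa*, *C1qb* and *Ptprc*, named after their values were seen, at 0 reads, and endothelial markers summed to 1.01 to 3.51 CPM. Mesenchymal markers summed to 32.7 CPM in wild-type replicate 3 and 1.33 to 5.37 CPM elsewhere. Reads of Y-linked genes were present in wild-type replicates 1 and 2 and *Ythdf2-/-* replicate 3. What these differences between libraries contribute to the values below was not tested, and the fit of each inhibitor is given with and without wild-type replicate 3. In bulk RNA, fewer cells of a type and less RNA per cell cannot be told apart.

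The inhibitors spanned a wide range of levels per exon length. In the *Ythdf2-/-* libraries *Cdkn1a* stood at 108 ± 5.13 RPKM (CPM per kb of exon, mean ± SD, n = 3), followed by *Cdkn1b* at 49.2 ± 10.5, *Cdkn2c* at 41.1 ± 0.863 and *Cdkn2d* at 29.0 ± 3.57 RPKM. The remaining 3 were low, with *Cdkn2a* at 9.01 ± 1.32, *Cdkn2b* at 6.97 ± 0.859 and *Cdkn1c* at 4.44 ± 3.14 RPKM. Neighbours in this order whose ranges overlapped were *Cdkn1b* and *Cdkn2c*, *Cdkn2a* and *Cdkn2b*, and *Cdkn2b* and *Cdkn1c*. In wild type the means were 110.1 ± 60.5 RPKM for *Cdkn1a*, 47.5 ± 8.61 for *Cdkn1b*, 33.0 ± 12.9 for *Cdkn2c* and 27.0 ± 10.3 for *Cdkn2d*. The wild-type mean of *Cdkn1a* was above that of 95.6% of the genes tested, and the wild-type mean of *Cdkn1c* was above that of 37.6%. *Cdkn1a* was the highest of the 7 in 5 of the 6 libraries. In wild-type replicate 3 *Cdkn1b* took that place, at 57.1 RPKM against 40.4 RPKM for *Cdkn1a*.

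**Figure D1:**
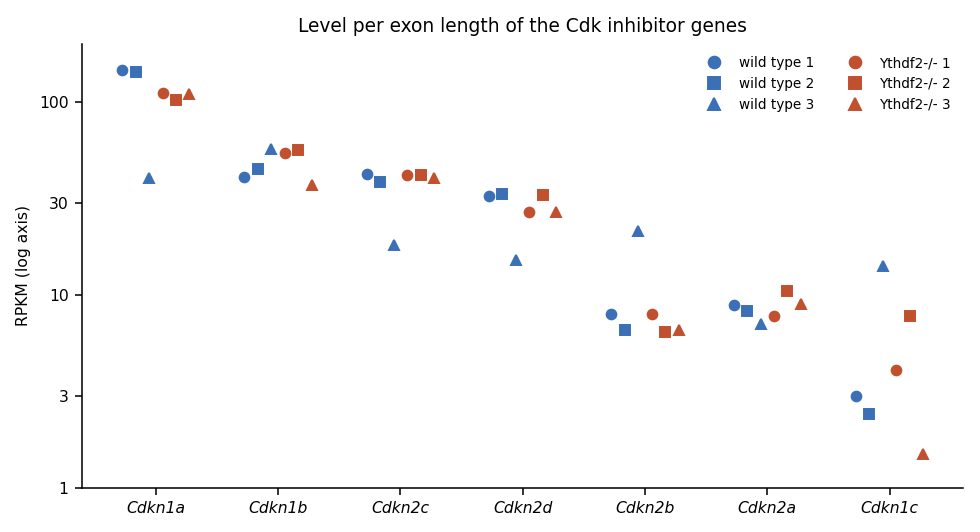
Level of each Cdk inhibitor gene in RPKM on a log axis, 1 point per library, with genes ordered by *Ythdf2-/-* replicate 1. *Cdkn1a* lies between 102 and 147 RPKM in 5 libraries and at 40.4 RPKM in wild-type replicate 3, where *Cdkn2b* and *Cdkn1c* are at their highest.

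*Cdkn1a*, whose product p21 arrests the cycle after p53 is activated, was read at 300.1, 290.3 and 82.2 CPM in wild-type replicates 1, 2 and 3, and at 226, 207 and 224 CPM in the *Ythdf2-/-* replicates. The wild-type libraries therefore held both the highest values and the lowest one, and the *Ythdf2-/-* libraries lay between them. The means were 224 ± 123 CPM in wild type and 219 ± 10.5 CPM in *Ythdf2-/-* (SD, n = 3). With all 6 libraries the log2 fold change of *Ythdf2-/-* over wild type was -0.03 (95% interval -1.15 to 1.08, edgeR adjusted p = 0.999). Without wild-type replicate 3, all 3 *Ythdf2-/-* libraries were below both wild-type libraries, at 74.2% of their mean. The log2 fold change was then -0.43 (95% interval -0.66 to -0.20), with an unadjusted p of 0.00386 in edgeR that did not pass after adjustment over all genes (adjusted p = 0.174). Without this library, DESeq2 called *Cdkn1a* lower in *Ythdf2-/-* (log2 fold change -0.43, adjusted p = 0.0356), 1 of 340 genes called in either direction of the 12363 with an adjusted p (2.75%). Limma-voom on the same 5 libraries did not (adjusted p = 0.177). Both wild-type libraries in this comparison carried Y-linked reads, as did *Ythdf2-/-* replicate 3, and their part in this difference was not tested. In a fit of all 6 libraries with a term for these reads the estimate was 0.50 (edgeR adjusted p = 0.684). Wild-type replicate 3 was the only wild-type library without such reads. Within wild type, the term therefore cannot be told apart from that library.

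*Cdkn1b* encodes p27, which accumulates in resting and differentiating cells. It was read at 97.6, 108 and 137 CPM in wild type and at 130.5, 135 and 89.3 CPM in *Ythdf2-/-*. Each genotype had libraries near the bottom and near the top of this range, and the highest value was in wild-type replicate 3. The log2 fold change was 0.05 (95% interval -0.47 to 0.57, edgeR adjusted p = 0.999) and 0.21 without wild-type replicate 3 (-0.26 to 0.67, adjusted p = 0.616).

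*Cdkn1c*, the imprinted gene for p57, had the widest spread of the 7 relative to its mean in either genotype. Its wild-type libraries held 5.82, 4.66 and 27.4 CPM, from 68, 61 and 299 reads, and the *Ythdf2-/-* libraries held 7.93, 15 and 2.90 CPM, from 93, 203 and 36 reads. Wild-type replicate 3 held 5.22 times the mean of the other wild-type libraries, and the *Ythdf2-/-* libraries alone differed 5.19-fold from lowest to highest. The genotypes overlapped, and the estimate changed sign with 1 library, from a log2 fold change of -0.54 with all 6 (95% interval -2.62 to 1.53, edgeR adjusted p = 0.999) to 0.72 without wild-type replicate 3 (-0.84 to 2.29, adjusted p = 0.600).

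**Figure D2:**
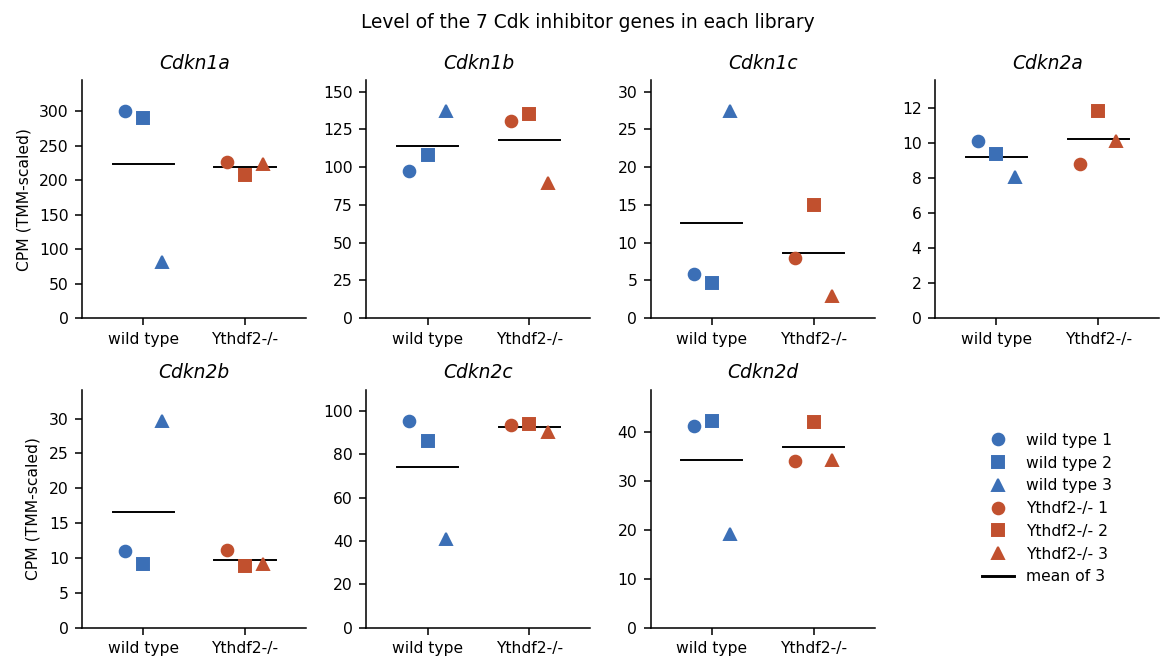
CPM of each of the 7 genes in each library on a linear axis from 0, by genotype, with marker shape for the replicate and a line for the mean of 3. Wild-type replicate 3 is the lowest of 6 libraries for *Cdkn1a*, *Cdkn2a*, *Cdkn2c* and *Cdkn2d* and the highest for *Cdkn1b*, *Cdkn1c* and *Cdkn2b*.

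Among the Ink4 genes, *Cdkn2c* encodes p18 and was the most abundant. It was read at 95.5 and 86.3 CPM in wild-type replicates 1 and 2, at 41.1 CPM in replicate 3, and at 93.7, 93.9 and 90.4 CPM in *Ythdf2-/-*. The 3 *Ythdf2-/-* libraries had a coefficient of variation of 2.10% and lay inside the range of wild-type replicates 1 and 2. The log2 fold change was 0.32 with all libraries (95% interval -0.42 to 1.06, edgeR adjusted p = 0.999) and 0.03 without wild-type replicate 3 (-0.20 to 0.25, adjusted p = 0.904), which is the narrowest interval of the 7 genes in that fit.

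*Cdkn2d*, the gene for p19, was read at 41.3, 42.3 and 19.2 CPM in wild type and at 34.1, 42.1 and 34.3 CPM in *Ythdf2-/-*. As for *Cdkn2c*, wild-type replicate 3 was below all other libraries. Its log2 fold change was 0.10 (95% interval -0.66 to 0.86, edgeR adjusted p = 0.999) and turned to -0.18 without that library (-0.50 to 0.13, adjusted p = 0.513).

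*Cdkn2a* and *Cdkn2b* are 11669 bases apart and both low in these cells. *Cdkn2a*, for p16 and Arf, rises when cultured cells age, and it was read at 10.1, 9.39 and 8.05 CPM in wild type and at 8.78, 11.8 and 10.1 CPM in *Ythdf2-/-*, from 88 to 159 reads. It had the smallest spread in wild type of the 7 genes relative to its mean, and the genotypes overlapped (log2 fold change 0.16, 95% interval -0.36 to 0.67, edgeR adjusted p = 0.999). The log2 fold change was 0.07 without wild-type replicate 3 (-0.40 to 0.545, adjusted p = 0.880). *Cdkn2b*, for p15, a gene induced by TGF-beta, was read at 11 and 9.16 CPM in wild-type replicates 1 and 2, at 29.7 CPM in replicate 3, and at 11.1, 8.89 and 9.17 CPM in *Ythdf2-/-*. Apart from wild-type replicate 3 its libraries lay between 8.89 and 11.1 CPM. Its log2 fold change was -0.77 with all libraries (95% interval -1.91 to 0.37, edgeR adjusted p = 0.999), the most negative of the 7, and -0.06 without wild-type replicate 3 (-0.53 to 0.42, adjusted p = 0.910).

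Of the 7 inhibitors, 0 were called at an adjusted p under 0.05 in the edgeR fit of all libraries, where 0 of 13112 genes tested were called (0%). At an unadjusted p under 0.05 there were 0 inhibitors, against 3.63% of all genes. The genotypes overlapped in all 7 genes, while 10.2% of all genes tested had no overlap. Without wild-type replicate 3, *Cdkn1a* alone of the 7 had no overlap, with 20.1% of all genes lower in *Ythdf2-/-* without overlap and 38.9% without overlap in either direction. It was also the 1 inhibitor with an unadjusted p under 0.05, against 8.58% of all genes lower and 16.6% in either direction. After adjustment 0 inhibitors and 0.0151% of all genes were called in that edgeR fit. The median absolute log2 fold change of the 7 was 0.16 in the fit of 6 libraries and the same (0.16) over all genes tested, and it was 0.18 against 0.21 without wild-type replicate 3.

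**Figure D3:**
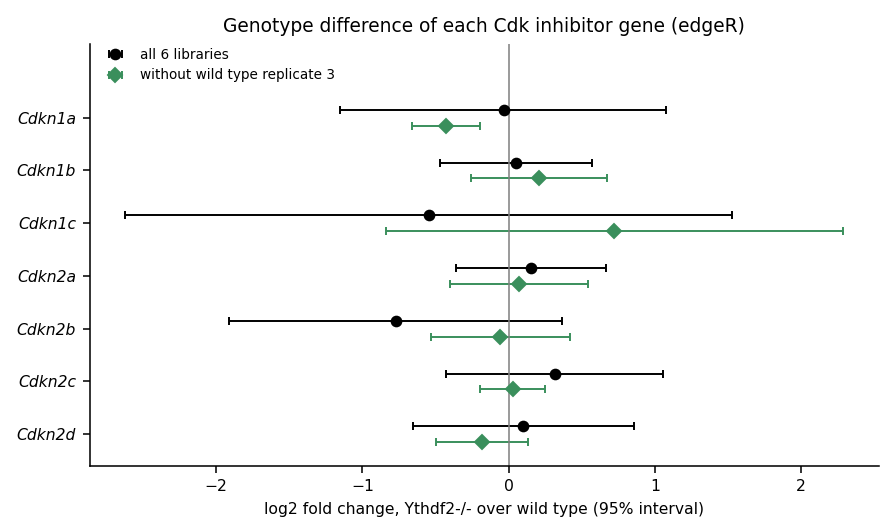
Log2 fold change of *Ythdf2-/-* over wild type for each gene with its 95% interval from edgeR, for all 6 libraries (circles) and without wild-type replicate 3 (diamonds). Each interval from 6 libraries includes 0, and without that library the interval of *Cdkn1a* alone lies below 0 (-0.66 to -0.20).

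For each of the 7 genes wild-type replicate 3 was either the lowest or the highest library, as it was for 68.3% of all genes tested (34.4% lowest, 33.8% highest). The direction divided both families. Relative to the mean of wild-type replicates 1 and 2 it held 27.8% of *Cdkn1a*, 45.2% of *Cdkn2c*, 46.0% of *Cdkn2d* and 82.7% of *Cdkn2a*, but 134% of *Cdkn1b*, 294% of *Cdkn2b* and 522% of *Cdkn1c*. The make-up of the inhibitor reads shifted accordingly. *Cdkn1a* made up 40.3% to 53.5% of the summed CPM of the 7 genes in 5 libraries and 23.8% in wild-type replicate 3, where *Cdkn1b* made up 39.8%. The ratio of *Cdkn1a* to *Cdkn1b* reads was 3.08, 2.70 and 0.598 in wild type and 1.73, 1.53 and 2.51 in *Ythdf2-/-*. It was lower in each *Ythdf2-/-* library than in wild-type replicates 1 and 2 and higher than in replicate 3. This comparison was made after the values were seen, and 38.9% of all single genes had no overlap without replicate 3. The summed level of the 7 genes was 561, 549.6 and 345 CPM in wild type and 512, 514 and 461 CPM in *Ythdf2-/-*.

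Transcripts of the proteins that the inhibitors bind were low in the same library. The list of 13 cyclins and Cdks included the D cyclins with Cdk4 and Cdk6, which Ink4 proteins target, and the E, A and B cyclins with Cdk2 and Cdk1. All 13 were lowest in wild-type replicate 3, with a summed level of 507 CPM against 3729 and 4139 CPM in the other wild-type and 2414 to 3169 CPM in the *Ythdf2-/-* libraries. The D cyclin *Ccnd1* was read at 1986, 1685 and 27.9 CPM in wild type and at 1008, 679 and 1113 CPM in *Ythdf2-/-*, and *Ccnd2* at 728, 689 and 55.3 CPM against 533, 339 and 1072 CPM. None of the 13 had an unadjusted p under 0.05 with all libraries in edgeR, 8 being higher and 5 lower in *Ythdf2-/-*, and their median log2 fold change was 0.07 (all genes -0.01). Without wild-type replicate 3, 12 were lower, 6 of them at an unadjusted p under 0.05 (8.58% of all genes were lower at this threshold, and 16.6% passed it in either direction) and 0 after adjustment (smallest adjusted p = 0.151), with a median of -0.38 against 0.01 over all genes. Among these, chosen after its values were seen, *Cdk2* was read at 61.9 and 58.9 CPM in wild-type replicates 1 and 2 and at 41.9, 43.1 and 40.1 CPM in *Ythdf2-/-*.

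The pocket proteins and E2f factors, on which the kinases act, had 0 of 13 genes at an unadjusted p under 0.05 with all libraries. Here 11 were lowest in wild-type replicate 3, among them *Tfdp1*, the E2f partner, at 87.9 CPM against 124 to 195 CPM, and *Rb1* was highest there, at 180.2 CPM against 98.0 to 129 CPM. Without that library 7 of the 13 were lower at an unadjusted p under 0.05, beside 8.58% of all genes, and 0 higher, with a smallest adjusted p of 0.151. Of 15 genes for the turnover and placement of the inhibitor proteins, 0 had an unadjusted p under 0.05 with all libraries. In 3 of the 15 the genotypes did not overlap, all 3 being lower in *Ythdf2-/-*, beside 10.2% of all genes in either direction. The ubiquitin ligase subunits *Ddb1* (log2 fold change -0.12) and *Skp1a* (-0.24) were the most abundant. Without wild-type replicate 3, 3 were lower and 1 higher at an unadjusted p under 0.05, beside 16.6% of all genes in either direction. The proliferation genes were also low in that library. *Mki67* was read at 698, 603 and 9.98 CPM in wild type and at 554, 594 and 677 CPM in *Ythdf2-/-*, and *Top2a* at 718, 649 and 6.96 CPM against 447, 632 and 528 CPM. Without wild-type replicate 3 all 15 were lower in *Ythdf2-/-*, 9 at an unadjusted p under 0.05 (8.58% of all genes) and 0 after adjustment (smallest adjusted p = 0.151).

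Because *Cdkn1a* is a standard target of p53, 21 other p53 targets were listed beside it. With all libraries 11 were higher and 10 lower, 0 at an unadjusted p under 0.05. The most abundant, *Ccng1* (cyclin G1), had the low value of *Cdkn1a* in wild-type replicate 3, at 557, 561 and 196 CPM in wild type and 419, 415 and 456 CPM in *Ythdf2-/-*. *Trp53inp1*, which enhances p53 activity, was less low there, at 215, 208 and 150.0 CPM in wild type and 212, 344 and 236 CPM in *Ythdf2-/-*. Wild-type replicate 3 was the lowest library for 14 of the 21 and the highest for 2. Without it 10 of 21 lay lower in *Ythdf2-/-* with no overlap (20.1% of all genes) and 0 lay higher, and 4 were lower at an unadjusted p under 0.05 (8.58% of all genes), with a smallest adjusted p of 0.205. Those 4, of which all but the first were named after their values were seen, were *Ccng1*, *Phlda3*, *Pmaip1* and *Aen*. The median of the list was 0.02 with all libraries and -0.21 without wild-type replicate 3.

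**Figure D4:**
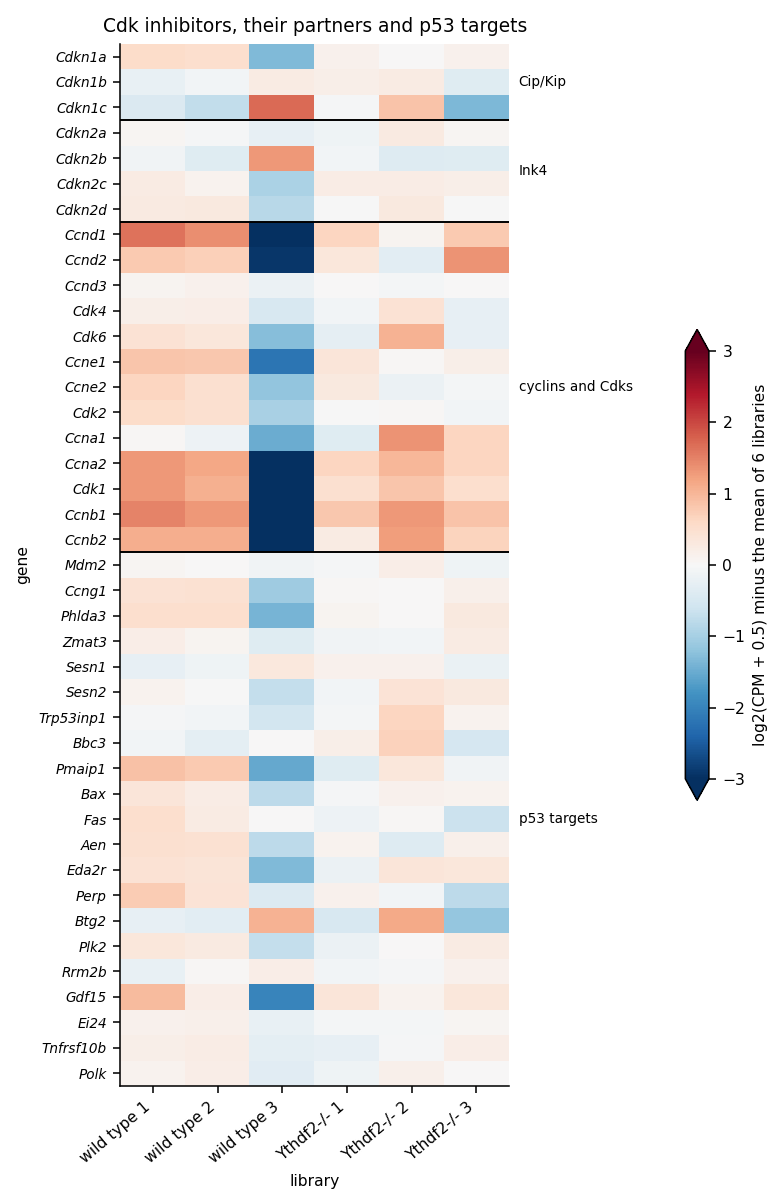
Log2(CPM + 0.5) minus the mean of the 6 libraries for the inhibitors, the cyclins and Cdks and the p53 targets, in rows, by library, in columns, with colours capped at 3 in either direction. The column of wild-type replicate 3 is blue for all 13 cyclins and Cdks and for 14 of 21 p53 targets it holds the lowest value, and the inhibitors are split there.

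Regulators of inhibitor transcription (Foxo, Smad, Polycomb and Myc genes among them) had 0 of 24 tested genes at an unadjusted p under 0.05. *Kmt2a*, a histone methyltransferase, had a log2 fold change of 0.01, and *Mdm4*, a p53 antagonist, -0.20. Without wild-type replicate 3, 3 were higher and 3 lower at an unadjusted p under 0.05. Beside these 6 of 24 stand 16.6% of all genes in either direction. Named after their values were seen, the higher ones were *Foxo1*, *Foxo3* and *Foxo4*, forkhead transcription factors, and the lower ones *Ezh2*, *Eed* and *Suz12*, subunits of Polycomb repressive complex 2. None passed after adjustment (smallest adjusted p = 0.165). Of 8 other proteins that bind or restrain Cdks, 0 had an unadjusted p under 0.05 with all libraries. *Cdk2ap1* was read at 379, 373 and 191 CPM in wild type and at 310.0, 322 and 304 CPM in *Ythdf2-/-*, and *Cdkn2aipnl* at 45.7, 43.3 and 28.0 CPM against 39.7, 38.6 and 39.6 CPM. In the fit without wild-type replicate 3, *Cdk2ap1* was the 1 of these 8 at an unadjusted p under 0.05 (log2 fold change -0.27, edgeR adjusted p = 0.258), beside 16.6% of all genes in either direction.

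Within 50 kb of the inhibitors 12 other genes were tested, several of them noncoding, and 0 had an unadjusted p under 0.05 with all libraries in edgeR. The genotypes did not overlap in 4 of the 12, of which 3 were higher and 1 lower in *Ythdf2-/-*, while 10.2% of all genes tested had no overlap. In the fit without wild-type replicate 3, *Srsf3* and *Faf1* were lower at an unadjusted p under 0.05 and 0 of the 12 higher, beside 16.6% of all genes in either direction, and 4 were higher and 2 lower without overlap (38.9% of all genes). *Trp53cor1*, a long noncoding RNA that p53 induces, lies 11852 bases from *Cdkn1a* on the opposite strand and was read at 11.2, 13.4 and 12.4 CPM in wild type and at 14.1, 17.0 and 20.5 CPM in *Ythdf2-/-*. All 3 *Ythdf2-/-* libraries were above all wild-type libraries, with a log2 fold change of 0.48 (edgeR unadjusted p = 0.0540, adjusted p = 0.999). *Srsf3*, a splicing factor 47606 bases from *Cdkn1a*, was read at 446, 435 and 305 CPM in wild type and at 311, 366 and 328 CPM in *Ythdf2-/-*, and its genotypes overlapped with all libraries (log2 fold change -0.24) and not without wild-type replicate 3 (-0.40, edgeR adjusted p = 0.219). *Lockd*, a long noncoding RNA 3566 bases from *Cdkn1b*, was read at 13.2, 11.8 and 0.732 CPM in wild type and at 9.64, 16.4 and 9.33 CPM in *Ythdf2-/-*, so that it was lowest in the library in which *Cdkn1b* was highest. *Gpr19*, a receptor gene 22206 bases from *Cdkn1b*, was at 46.8, 49.5 and 64.9 CPM in wild type and at 59.5, 68.3 and 49.0 CPM in *Ythdf2-/-*. *Gm12610*, a noncoding RNA on the opposite strand whose span overlaps that of *Cdkn2b*, held 8 to 21 reads per library and was higher without overlap, at 1.33 to 1.69 CPM in *Ythdf2-/-* against 0.732 to 1.14 CPM. The strand setting of the counting is not given in the sources used here. The annotated exons of *Gm12610* and *Cdkn2b* do not overlap, so reads in them differ by position. *Faf1*, 9870 bases from *Cdkn2c*, was lower without overlap, at 68.1 to 71.3 CPM in *Ythdf2-/-* against 72.3 to 95.6 CPM (log2 fold change -0.26, edgeR adjusted p = 0.999, and -0.35 without wild-type replicate 3, adjusted p = 0.213). *Keap1*, 49126 bases from *Cdkn2d*, was higher without overlap, at 66.3 to 68.6 CPM against 60.9 to 62.0 CPM. *Kri1*, 489 bases from *Cdkn2d*, was read at 22.3, 19.2 and 22.0 CPM in wild type and at 23.0, 18.5 and 20.0 CPM in *Ythdf2-/-*, without the low value that *Cdkn2d* had in wild-type replicate 3. With all libraries the genotypes also overlapped in *Crebl2* and *2810454H06Rik* near *Cdkn1b* and in *Atg4d* and *Slc44a2* near *Cdkn2d*, with log2 fold changes of -0.41, 0.10, 0.21 and -0.07. *Slc22a18*, near *Cdkn1c*, held 0 to 4 reads and was not tested.

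**Figure D5:**
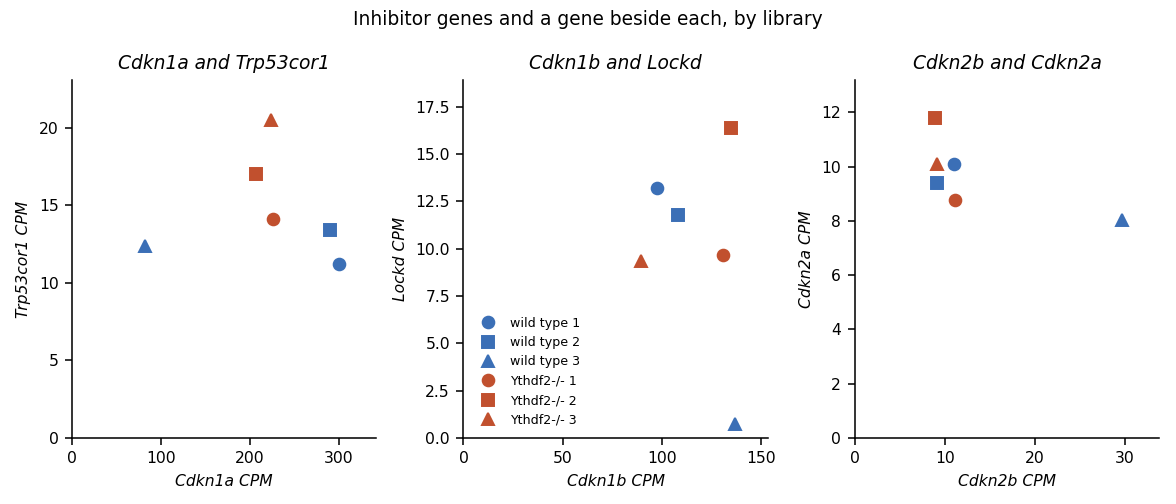
CPM of an inhibitor gene on the x axis and of a gene beside it on the y axis, 1 point per library, on linear axes from 0. *Trp53cor1* has no overlap between genotypes (as 10.2% of all genes tested) while *Cdkn1a* has, *Lockd* is at 0.732 CPM where *Cdkn1b* is at 137 CPM, and *Cdkn2b* reaches 29.7 CPM where *Cdkn2a* is at 8.05 CPM.

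*Cdkn1c* lies in an imprinted domain of chromosome 7 that is under the noncoding RNA *Kcnq1ot1*. Of 9 genes listed from this domain 5 were tested, and 0 had an unadjusted p under 0.05 with all libraries. In 2 of the 5 the genotypes did not overlap, both being lower in *Ythdf2-/-*, beside 10.2% of all genes in either direction. *Kcnq1ot1*, named after its values were seen, was read at 75.7, 69.9 and 219 CPM in wild type and at 97.2, 86.3 and 123 CPM in *Ythdf2-/-*. Like *Cdkn1c* it was highest in wild-type replicate 3, and its log2 fold change turned from -0.25 with all libraries to 0.49 without that one (edgeR unadjusted p = 0.0237, adjusted p = 0.242). It was then the 1 gene of the 5 at an unadjusted p under 0.05, beside 16.6% of all genes. The most abundant members were *Cd81*, a membrane tetraspanin, with a log2 fold change of -0.43 (edgeR adjusted p = 0.999), and *Nap1l4*, a nucleosome assembly protein, with -0.12. *Phlda2* had 0 reads in all libraries and *Kcnq1* had 2 in 1 library.

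The genes most like each inhibitor across the 6 libraries were taken by Pearson's r of log2 CPM. For *Cdkn1a* they were *Fancb* (r = 0.9996), *Uchl5* (0.9992) and *Mcm6* (0.9992), and r stayed at 0.992 to 0.998 over the 5 libraries without wild-type replicate 3. *Mcm6*, a subunit of the replicative helicase, was read at 222, 216 and 22.9 CPM in wild type and at 144, 122 and 145 CPM in *Ythdf2-/-*. For *Cdkn1b* they were *Ccdc28a*, *Itih3* and *Vps51* (r = 0.9897 to 0.9936), and for *Cdkn1c* *Pak3*, *Tpra1* and *Gpr153* (0.9975 to 0.9994). *Pak3*, a kinase of neurons, was read at 32.4, 26.7 and 177 CPM in wild type and at 46.4, 91.1 and 14.6 CPM in *Ythdf2-/-*, the same order of libraries as *Cdkn1c*. For *Cdkn2c* they were *Rtn4rl1*, *Cenpm* and *AI854703* (r = 0.9963 to 0.9985), for which r over the 5 libraries was 0.796 to 0.925. For *Cdkn2d* they were *Sh3bgrl*, *Tmem176a* and *Rpsa* (0.9974 to 0.9993), for *Cdkn2b* *Srebf1*, *Irs2* and *Pim1* (0.9939 to 0.9966, and 0.886 to 0.978 over the 5 libraries), and for *Cdkn2a* *Tmem198b*, *Strada* and *Ppp6r3* (0.9700 to 0.9903). For the genes named beside *Cdkn1b*, *Cdkn1c*, *Cdkn2a* and *Cdkn2d*, r over the 5 libraries was 0.967 to 0.999. With 6 points each, these values only describe the libraries.

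Markers of neural and other cells differed between the libraries. With all libraries, 1 of 12 progenitor, 2 of 11 neuronal and 1 of 8 astrocyte markers tested were lower in *Ythdf2-/-* at an unadjusted p under 0.05 in edgeR, as were 4 of 9 oligodendrocyte lineage markers, with 1 higher, beside 3.63% of all genes in either direction, and 0 passed after adjustment (adjusted p = 0.999). The lists were mixed in direction, with 7 of 12 progenitor (median log2 fold change 0.04), 2 of 11 neuronal (-0.45), 3 of 8 astrocyte (-0.35) and 3 of 9 oligodendrocyte lineage markers (-0.84) higher in *Ythdf2-/-*. These values changed without wild-type replicate 3, to 7 of 12 progenitor (0.23), 7 of 11 neuronal (0.16), 4 of 8 astrocyte (0.04) and 3 of 9 oligodendrocyte lineage markers (-0.17) higher. The oligodendrocyte lineage markers lower at an unadjusted p under 0.05 then went from 4 to 0 and the neuronal ones from 2 to 1, while 1 progenitor and 1 astrocyte marker were lower and 2 progenitor and 1 oligodendrocyte lineage markers higher (16.6% of all genes in either direction). The genes named next are among those past the threshold with all libraries. *Dcx* of young neurons was read at 10.0, 13.1 and 315 CPM in wild type and at 8.36 to 11.3 CPM in *Ythdf2-/-*, with a log2 fold change of -3.51 that became -0.23 without wild-type replicate 3, and *Stmn2* was at 1.45 to 1.54 CPM against 0.0853 to 0.592 CPM. *Gfap* of astrocytes was at 437, 625 and 3046 CPM against 5.55 to 127 CPM. The myelin gene *Mbp* reached 573 CPM in wild-type replicate 3 and at most 8.85 CPM elsewhere, and *Myrf* 175 CPM against at most 7.94 CPM. *Cspg4* was at 89.9 to 96.8 CPM in wild type and 110.3 to 145 CPM in *Ythdf2-/-*, and the progenitor marker *Prom1* at 5.39, 5.42 and 17.9 CPM against 1.13 to 2.30 CPM. Of the other lists, *Cx3cr1* and *Itgam* of microglia, *Kdr* and *Tek* of endothelium and *Acta2* of smooth muscle stayed under 3 CPM, while *Pdgfrb* of pericytes was at 31.8 CPM in wild-type replicate 3 and at most 3.50 CPM elsewhere. Their part in the levels of the inhibitors was not tested.

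The motif GGACT, a common form of the sequence in which m6A is placed, was counted in 1 listed RefSeq transcript of each gene. *Cdkn1a* held 4 in 1943 bases (2.06 per kb, above 89.7% of the 13045 genes with a transcript), *Cdkn2c* held 3 and *Cdkn1c* held 2. *Cdkn1b* and *Cdkn2b* held 1 each, and *Cdkn2a* and *Cdkn2d* held 0. The median over all genes was 1.05 per kb. These letters do not show methylation.

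A separate gene table of each library lists FPKM from expected counts that sum to 1.97% to 2.40% of the counted reads. For the inhibitors it rests on 0 to 6 expected counts per gene and library. *Cdkn1c* is listed at 0 in all 6 libraries, *Cdkn2a* in 5 and *Cdkn2d* in 4, although their counted reads ranged from 36 to 568. In these values *Cdkn2c* was at 6.02, 3.52 and 6.93 FPKM in wild type and at 2.09, 1.80 and 1.89 FPKM in *Ythdf2-/-*, from 3, 1 and 2 against 1, 1 and 1 expected counts. The *Ythdf2-/-* libraries were below all wild-type libraries here, for 1 of the 7 inhibitors (6.29% of all 14320 genes tested in FPKM had no overlap), and not in the counted reads, and limma on log2(FPKM + 1) gave a difference of -1.11 (adjusted p = 0.907).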

How the data were processed

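RNA-seq of input RNA from 3 wild-type and 3 *Ythdf2-/-* neurosphere samples was analysed, with groups and replicate numbers from the sample labels. The 6 m6A-IP samples were mapped to groups and not analysed here. mRNA was fragmented by sonication and made into libraries with a stranded kit. The authors deposited raw counts per gene, whole reads without normalization, and a second table with expected counts, TPM and FPKM. Per the submitters' processing notes, Bowtie2 2.2.9, RSEM 1.2.15, featureCounts and the build mm10 were used, while the methods name another aligner, and the strand setting is not given in the sources used here. The authors' expected counts, TPM and FPKM values were used only as an alternative.

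Counts of 13112 genes that passed filterByExpr entered the quasi-likelihood test of edgeR 4.0.16 (TMM factors, robust glmQLFit, then glmQLFTest, genotype as the only term, Benjamini-Hochberg adjustment over all genes tested) in R 4.3.3, with DESeq2 1.42.0 and limma 3.58.1 as alternatives. Scripts were tested on simulated counts. Log2 CPM for likeness used a prior count of 2. RPKM was computed from the counts and the union of exons of the transcripts the deposited tables list, in RefSeq GRCm38.p6. FPKM tests used log2(FPKM + 1), which understates the change of low genes. No 2 libraries of the same genotype agreed within sampling noise, with a chi-square per degree of freedom of 4.57 to 139.8. An exact permutation test of 3 against 3 cannot go below 0.1. PCR copies carry no molecular identifiers, so counting precision covers counting error only.

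The 7 genes and the 15 other gene lists were chosen with earlier results of these data known. Of each list, members at an unadjusted p under 0.05 were named (at most 4), otherwise the 2 of highest mean CPM, together with the 3 genes most like each inhibitor and tested genes within 50 kb, and others are marked as chosen after their values were seen. The alternatives cover test, scaling, filter, pseudocount, a replicate block, Y-linked reads as a term (a sum above 3 over 4 genes) and leaving out each library. DESeq2 and limma-voom without wild-type replicate 3 and the overlap and the list and neighbour counts without it were chosen after seeing the data. The values of 1 gene of the marker lists are not reported here.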

Additional observations from a re-analysis of the deposited data

How the results depend on the processing

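With all 6 libraries the edgeR fit called 0 genes at an adjusted p under 0.05. DESeq2 called 80, limma-voom with sample quality weights 632 and the fit with a term for Y-linked reads 13. RLE size factors, no filter and a minimum of 10 counts gave 1 each, and limma on log2(FPKM + 1), on log2(TPM + 1) and on log2(FPKM + 1) with a mean of at least 1 gave 2 each, and on log2(FPKM + 0.1) 1. Leaving out 1 library gave 0 to 2, the 2 without wild-type replicate 3, where DESeq2 called 340. None of these called an inhibitor except DESeq2 without wild-type replicate 3, which called 1, *Cdkn1a* (adjusted p = 0.0356). At an unadjusted p under 0.05, *Cdkn1c* and *Cdkn2b* (-0.87) passed in edgeR with the Y-linked term (adjusted p = 0.339 and 0.450), where 11% of all genes passed, and *Cdkn1a* passed in limma-voom with quality weights (-0.37, adjusted p = 0.130), where 29.9% did, and in each fit without wild-type replicate 3 (10.6% to 16.6% of all genes). The inhibitors without overlap were 0 with TMM, RLE and library totals, 1 in the deposited FPKM (*Cdkn2c*, beside 6.29% of all genes) and 1 in CPM without wild-type replicate 3 (*Cdkn1a*, beside 38.9%).

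Of 148 log2 fold changes of the 7 genes under 22 alternatives, 116 kept direction and side of the threshold, 1 became a call and 31 turned direction, and the cause was not tested. For *Cdkn1a* (-0.03) the value was 0.20 with limma-voom, 0.16 with the replicate block, 0.50 with the Y-linked term and 0.34, 0.66, 1.27 and 0.34 on log2(FPKM + 1), log2(TPM + 1), log2(FPKM + 0.1) and log2(FPKM + 1) with a minimum, with -0.43 to 0.23 when 1 library was left out. For *Cdkn1b* (0.05) it was 0.45 to 0.52 on the 4 FPKM and TPM scales, -0.12 with the Y-linked term and -0.047 to 0.22 with 1 library left out. For *Cdkn1c* (-0.54) it was -1.07 with the Y-linked term, 0.41 with quality weights and -1.20 to 0.72 with 1 library left out (0.72 with DESeq2 and 0.46 with limma-voom without wild-type replicate 3). For *Cdkn2a* (0.16) it was -0.041 with quality weights and -0.85, -1.24 and -1.88 on log2(FPKM + 1), log2(TPM + 1) and log2(FPKM + 0.1). For *Cdkn2b* (-0.77) it was 0.053 with quality weights and -0.035 to -0.089 on the 4 FPKM and TPM scales. For *Cdkn2c* (0.32) it was -1.11, -1.32, -1.41 and -1.11 on the 4 FPKM and TPM scales. For *Cdkn2d* (0.10) it was 1.33, 2.05 and 3.30 on log2(FPKM + 1), log2(TPM + 1) and log2(FPKM + 0.1), -0.25 with quality weights and -0.18 to 0.28 with 1 library left out (-0.18 with DESeq2 and -0.19 with limma-voom without wild-type replicate 3).

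Deviations from the genotype means correlated at -0.248, -0.244 and -0.394 between same-numbered libraries. Wild-type replicates 1 and 2 correlated at 0.349 and 0.399 with *Ythdf2-/-* replicate 3. Because wild-type replicate 3 stood far apart and sets the wild-type deviations, these values can neither show nor exclude that the replicate numbers pair the libraries. With the number as a block 0 genes and 0 inhibitors were called. The common biological coefficient of variation was 0.332. *Cdkn1c*, with 36 to 299 reads per library, had the fewest reads of the 7 in 4 of the 6 libraries.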
